A study of Camellia sinensis with 24 samples.

Results

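The genes described are the laccases and other multicopper oxidases of tea (Camellia sinensis) roots. They were chosen as every gene of the count table whose annotation names at least 1 of the 3 multicopper oxidase domains of the Pfam database (PF07732, PF00394 and PF07731, which usually stand in this order along the protein). 102 of 48505 genes met this rule, 91 of them annotated gene models and 11 newly assembled from the reads by the authors. All 3 domains were annotated in 58 members, 2 domains in 17 members and 1 domain in 27 members. The rule reads the annotation alone.

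RNA sequencing counts were compared between 2 genotypes, “1511”, described by the study as tolerant of low potassium (K), and “1601”, described as intolerant. Cuttings of both were grown with their roots divided over the 2 compartments of hydroponic boxes, 12 plants to a box, first on K solution for 60 days and then under the treatments for 5 days. The 4 root conditions were Sp.NK, the K side of a divided box (1 mM K2SO4), Sp.SK, the K-free side of the same box (0 mM), U.SK, K-free solution on both sides (0 mM), and U.NK, K solution on both sides (1 mM). Each genotype and condition had 3 libraries, 24 in all, and all plants carried the same preculture and the same other nutrients. Each genotype is 1 line grown from cuttings, and Sp.NK and Sp.SK roots belong to the same plants. The labels do not say which box a library came from, so p-values measure the spread between these libraries only.

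Multicopper oxidases use 4 bound copper ions to pull electrons from a substrate and pass them to oxygen, which becomes water. In plants the best known are the laccases, secreted enzymes that oxidise monolignols and so take part, with the class III heme peroxidases, in building lignin in xylem vessels, fibres and the endodermis. Ascorbate oxidases, the SKU5-like proteins that in Arabidopsis affect the direction of root growth, and the LPR ferroxidases that in Arabidopsis slow root growth on low phosphate are also multicopper oxidases. These groups can carry the same domains, and the annotation names the domains alone, so no member is called a laccase or an ascorbate oxidase here and each is given by its identifier.

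In each of the 91 annotated models the exons summed to the coding length, so the models hold no untranslated sequence. The 55 annotated members with all 3 domains had a median coding length of 1716 bases (range 1113 to 3441) and a median of 6 exons. Of these, 27 had 5 or 6 exons, 17 had 7 to 9, 8 had 10 or more and 3 had fewer than 5. The 36 annotated members with fewer domains were shorter, with a median of 874.5 bases, and 20 of them had fewer than 5 exons. 6 members also carried a further domain. The one with the highest level, TEA014056, joins an aromatic amino acid lyase domain, the domain of the enzyme that opens phenylpropanoid synthesis, to a single multicopper oxidase domain in 1 model of 2487 coding bases, and its reads cannot be assigned to either domain. The 102 members lay on 75 scaffolds, and 43 of them shared a scaffold with another member, at most 5 on one scaffold. 20 members had another within 10 kb, and 2 newly assembled members on scaffold 1746 overlapped on opposite strands, where reads cannot be told apart unless the counting used strand. Reads that fit more than 1 member could have been split between them, so close neighbours are uncertain.

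The libraries held 13214833 to 26309637 counts. Of the 102 members, 13 had no count in any library, 16 had counts but too few for the filter on low counts, and 73 were tested (64 annotated and 9 newly assembled, 50 of them with all 3 domains). A member could pass the filter through the 1 group in which it was high. Normalization factors of the trimmed mean of M-values (TMM) were 0.816 to 0.921 in the “1511” U.SK libraries and 0.852 to 1.11 in the other 21. The 0.852 was that of “1511” U.NK replicate 2, and the next lowest of the 21 was 0.979. The common coefficient of biological variation was 0.389 in “1511” U.NK and 0.339 in “1511” U.SK, against 0.191 in “1601” U.SK and 0.176 in “1601” U.NK. In bulk roots, fewer cells of a type and less RNA per cell cannot be told apart.

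Levels are given in FPKM, the count scaled by the length of the gene model and by the size of the library, as deposited. 48 members had a mean of at least 1 FPKM over the 24 libraries and 17 a mean of at least 10 FPKM. The 3 highest, TEA020236, TEA031749 and TEA020596, held 42.3% of the family's summed mean FPKM, and the 10 highest held 68.8%. Summed over all 102 members, the level in “1511” averaged 764 ± 111 FPKM under Sp.NK, 598 ± 140 under Sp.SK, 420.4 ± 134 under U.SK and 655 ± 160 under U.NK (SD, n = 3 each). In “1601” it averaged 1139 ± 126 FPKM under Sp.NK, 377.5 ± 91.4 under Sp.SK, 995 ± 200.3 under U.SK and 1048 ± 87.1 under U.NK (SD, n = 3 each). The lowest condition was thus U.SK in “1511” and Sp.SK in “1601”. In “1601” the Sp.SK libraries (272 to 436 FPKM) lay apart from the other 9 (780.3 to 1280 FPKM). In “1511” the U.SK libraries (335 to 575 FPKM) overlapped both the Sp.SK libraries (477 to 751 FPKM) and the U.NK libraries (481 to 796 FPKM).

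**Figure D1:**
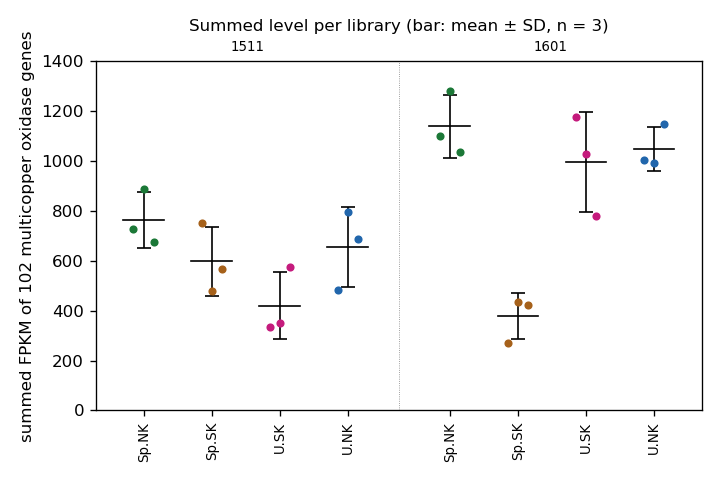
Summed FPKM of the 102 members (y axis, from 0) in each of the 24 libraries, by condition in “1511” (left) and “1601” (right). Points are libraries, and bars give the mean and SD of 3 libraries. The 3 Sp.SK libraries of “1601” sit between 272 and 436 FPKM, below all other “1601” libraries.

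The sum rests on few genes, so the order of conditions was also read member by member. Among the 73 tested members, 52 (71.2%) had their lowest mean of the 4 “1511” conditions under U.SK, as had 38.0% of all genes tested. In “1601” 35 members (47.9%) were lowest under Sp.SK, as were 27.8% of all genes tested. At the upper end, 35 members in “1511” and 29 in “1601” were highest under Sp.NK (47.9% and 39.7%, against 32.6% and 23.6% of all genes tested). These counts are descriptions without a test.

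**Figure D2:**
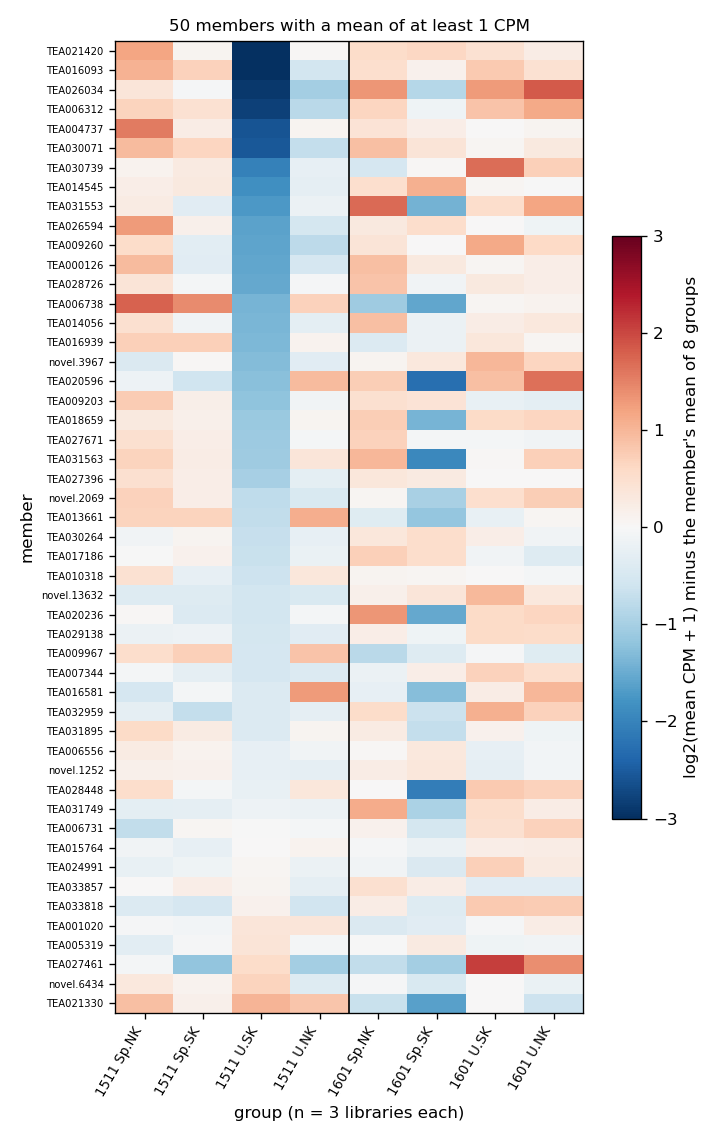
Group means of the 50 members whose mean was 1 CPM or more (CPM is the count scaled by library size and the TMM factor), as log2(mean CPM + 1) minus the member's mean over the 8 groups, with 1511 left of the line and 1601 right of it and members sorted by their value on 1511 U.SK. Blue cells gather in the 1511 U.SK column in the upper rows and, for other members, in the 1601 Sp.SK column.

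The most abundant member, TEA020236 (scaffold 599, 544185 to 548437, minus strand, 6 exons), had 309, 364 and 275 FPKM in the Sp.NK libraries of “1601”, 21.0, 42.9 and 67.0 under Sp.SK, 267, 184 and 111 under U.SK, and 193, 171 and 232 under U.NK. All 3 Sp.SK libraries were below all 9 others of that genotype. In “1511” it had 104, 207 and 80.8 FPKM under Sp.NK, 141, 57.8 and 89.8 under Sp.SK, 99.8, 84.4 and 81.1 under U.SK, and 87.5, 170.1 and 109 under U.NK, and the 4 conditions overlapped. TEA031749 (scaffold 2946, 38056 to 43170, minus strand, 6 exons) averaged 197 ± 33.1 FPKM under Sp.NK, 46.6 ± 21.9 under Sp.SK, 129.8 ± 40.7 under U.SK and 104 ± 7.49 under U.NK in “1601”. Its means in “1511” stayed between 73.4 and 82.1 FPKM in all 4 conditions.

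TEA020596 (scaffold 98, 2772931 to 2776659, plus strand, 6 exons) was low in both of the conditions named above. In “1601” it had 73.6, 144 and 40.1 FPKM under Sp.NK, 8.02, 6.64 and 16.2 under Sp.SK, 125, 108 and 58.4 under U.SK, and 125, 173 and 193 under U.NK. In “1511” it had 44.2, 74.0 and 22.6 FPKM under Sp.NK, 48.9, 18.4 and 36.1 under Sp.SK, 16.9, 23.8 and 24.7 under U.SK, and 33.9, 195 and 75.6 under U.NK. The Sp.SK libraries of “1601” lay below all others of that genotype, and in “1511” the U.SK mean was the lowest but its libraries overlapped those of both divided sides.

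TEA031563 and TEA031553 lie 4414 bases apart on scaffold 1308, at 1109165 to 1112561 on the minus strand and at 1116975 to 1120206 on the plus strand, with their annotated starts facing each other across the gap. TEA031563 averaged 41.2 ± 7.82 FPKM under Sp.NK and 5.04 ± 3.99 under Sp.SK in “1601”. TEA031553 averaged 52.5 ± 4.76 FPKM under Sp.NK and 5.52 ± 3.91 under Sp.SK. TEA018659 (scaffold 1011, 5 exons) had 32.1 ± 1.85 and 6.91 ± 4.05 FPKM on the same sides. Across the 24 libraries, which share 8 groups, the Pearson correlations between these 3 members were 0.906 to 0.945, and those of all pairs among them and TEA020236, TEA031749 and TEA020596 were 0.648 to 0.945. The 6 members all had 5 or 6 exons and all 3 domains.

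Neighbouring members did not all share a level. TEA020602, on scaffold 98 with TEA020596, averaged 0.220 FPKM against 70.2 FPKM for TEA020596. TEA031892, 2249 bases from TEA031895 (scaffold 4603, 8 exons), averaged 0.140 FPKM against 20.4 FPKM. TEA018652, on scaffold 1011 with TEA018659, averaged 0.0240 FPKM against 21.5 FPKM.

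**Figure D3:**
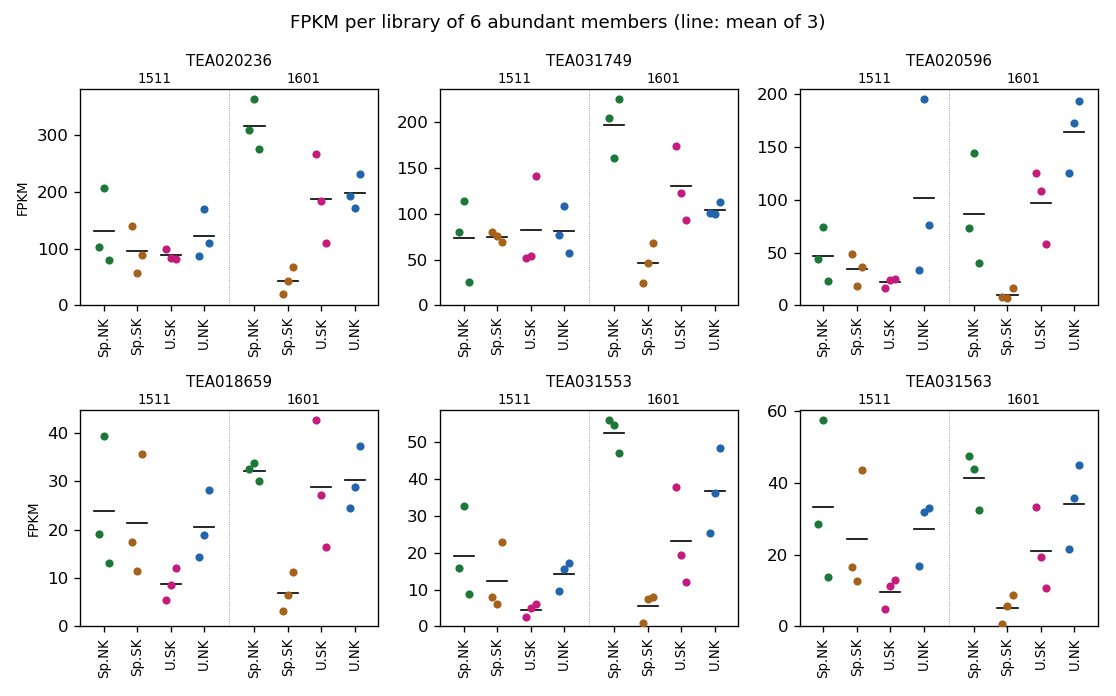
FPKM per library (y axes, from 0) of 6 abundant members by condition, with “1511” left and “1601” right in each panel. Points are libraries, and lines are means of 3. In “1601” each of these members has its lowest mean under Sp.SK.

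The remaining 4 of the 10 most abundant members followed other patterns. TEA026034 (scaffold 282, 5 exons) had 0.454, 2.95 and 7.14 FPKM in the U.SK libraries of “1511”, against 10.9, 14.9 and 17.9 FPKM in those of U.NK. In “1601” it had 74.1, 96.8 and 49.1 FPKM under U.SK, against 121, 105 and 100.1 FPKM under U.NK. TEA014056, the joined lyase model, averaged 12.2 ± 4.63 FPKM under U.SK and 25.8 ± 8.97 FPKM under U.NK in “1511”. TEA027461 (scaffold 4241, 8 exons) had, in “1601”, 14.2, 13.2 and 12.7 FPKM under Sp.NK, 5.25, 10.2 and 17.3 under Sp.SK, 97.9, 113 and 78.9 under U.SK, and 60.8, 59.1 and 59.6 under U.NK. The divided-root libraries of “1601” were thus all below the uniform ones for this member. In “1511” its U.SK libraries had 8.75, 5.06 and 88.1 FPKM, a single high library. TEA031895 varied least of the 4, with group means from 11.6 to 29.9 FPKM.

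The first comparison asked what K starvation of the whole root did in “1511”. Under U.SK, against U.NK, 12 of the 73 tested members fell and 1 rose (edgeR's quasi-likelihood test, Benjamini-Hochberg adjusted p under 0.05), where 7.84% of all genes tested were called, 1.96% higher and 5.88% lower. The members' median log2 fold change was -1.09, against 0 for all genes tested (-1.05 with 5 members that had no count under U.SK held at a bound). All 12 that fell had all 3 domains. TEA016093 (scaffold 1888, 9 exons) had 0.646, 0.563 and 0.423 FPKM under U.SK, against 4.63, 1.14 and 11.3 FPKM under U.NK, a log2 fold change of -3.41 (SE 0.63, adjusted p = 0.00464). TEA013661 (scaffold 942, 5 exons) had 9.93, 10.9 and 8.80 FPKM under U.SK, against 46.7, 16.2 and 46.7 FPKM under U.NK, a log2 fold change of -1.90 (SE 0.36, adjusted p = 0.00515). Neither member's groups overlapped, and both calls held with each library left out in turn.

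TEA006312, TEA030071, TEA006738, TEA030739, TEA021420, TEA014545 and TEA004737 also fell, with log2 fold changes from -2.26 to -5.17. For TEA021420 (6 exons) the U.SK libraries had 0.345, 0.744 and 0.343 FPKM, against 2.49, 0.354 and 24.3 FPKM under U.NK. For TEA004737 (12 exons) they had 0.0480, 0.0906 and 0.0186 FPKM, against 0.444, 0 and 5.19 FPKM under U.NK. In both, U.NK replicate 2 was as low as the U.SK libraries and replicate 3 was far above them. TEA020596 fell as well (log2 fold change -2.23, SE 0.58, adjusted p = 0.0237), and here U.NK replicate 2 was the highest library. The member that rose, TEA030393, was named after its values were seen and had 1.29, 1.15 and 0.177 FPKM under U.SK, against 0.141, 0.219 and 0.106 FPKM under U.NK, with overlapping groups. Leaving out U.NK replicate 2 gave 28 members called, U.NK replicate 3 gave 2, U.SK replicate 1 gave 3 and U.SK replicate 2 gave 8. Here and below, counts over all genes are not given for fits with a library left out. Such counts show how far the calls depend on a library and nothing particular to the members. When only the 12 libraries of “1511” were fitted, no member was called (28 at an unadjusted p under 0.05). That fit called 0 of 32265 genes, so its lack of calls is not particular to the members. Its share of all genes at an unadjusted p under 0.05 is not given. Limma voom, another method, called 15 of 73 members lower and 3 higher under U.SK than under U.NK. It called 13463 of 35557 genes in all, 50.5% of them higher.

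In roots of “1511” without K, those of the divided plants (Sp.SK) differed from those of fully starved plants (U.SK) in 28 members. In these Sp.SK roots 27 of 73 members were higher and 1 was lower, where 31.1% of all genes tested were called, 17.4% higher and 13.8% lower. The median log2 fold change of the members was 1.33, against 0 for all genes tested (1.32 with the 5 members at a bound). Between 20 and 27 members were called with each library left out in turn, and 15 members were called in all 6 such fits. Of the annotated members with all 3 domains, 9 of 25 with 5 or 6 exons and 11 of 21 with 7 or more exons were higher.

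The clearest member was TEA016093, with 17.1, 18.4 and 6.99 FPKM under Sp.SK, against 0.646, 0.563 and 0.423 FPKM under U.SK, a log2 fold change of 4.72 (SE 0.64, adjusted p = 0.000149). TEA030071 (scaffold 1128, 8 exons) had 16.0, 12.1 and 7.41 FPKM under Sp.SK, against 0.645, 0.885 and 0.499 FPKM under U.SK, a log2 fold change of 4.15 (SE 0.60, adjusted p = 0.000201). TEA006312 (scaffold 2905, 8 exons) had 15.2, 13.3 and 4.58 FPKM under Sp.SK, against 0.664, 0.820 and 0.356 FPKM under U.SK, a log2 fold change of 4.20 (SE 0.67, adjusted p = 0.000358). In each of these the lowest Sp.SK library was several times the highest U.SK library. TEA006738 (scaffold 8548, 13 exons) had 15.5, 6.63 and 4.80 FPKM under Sp.SK, against 0.600, 1.70 and 0.773 FPKM under U.SK, a log2 fold change of 3.15 (SE 0.58, adjusted p = 0.000874). TEA030739 (scaffold 1514, 6 exons) had 9.52, 8.10 and 4.27 FPKM under Sp.SK, against 1.01, 0.634 and 1.41 FPKM under U.SK, a log2 fold change of 2.84 (SE 0.54, adjusted p = 0.00112). These 5 calls held with each library left out.

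TEA021420, TEA014545 and TEA004737 rose with log2 fold changes of 4.31 (SE 1.06, adjusted p = 0.00525), 4.16 (SE 0.80, adjusted p = 0.00118) and 5.35 (SE 1.38, adjusted p = 0.00720). TEA009203 (scaffold 4263, 6 exons) had 93, 12 and 17 counts under Sp.SK and no count in any U.SK library, so it was at least 26.0-fold higher against a floor of 3 counts over the 3 U.SK libraries. The neighbours TEA012577 and TEA012580 on scaffold 3313, each with 2 domains, and TEA000123 were called too and had no count under U.SK. TEA026034 (log2 fold change 3.06, SE 0.84, adjusted p = 0.0106) had overlapping groups. It lost its call without Sp.SK replicate 1 (adjusted p = 0.122).

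The 1 member that was lower under Sp.SK, TEA005319 (scaffold 2184, 16 exons, with a pentapeptide repeat domain), moved little. It had 6.50, 5.93 and 8.36 FPKM under Sp.SK, against 10.8, 8.49 and 9.36 FPKM under U.SK, a log2 fold change of -0.45 (SE 0.15, adjusted p = 0.0342). In CPM (counts scaled by library size and the TMM factor) the groups overlapped, with 21.8 in the highest Sp.SK library and 21.6 in the lowest U.SK library. This call held in 2 of the 6 fits with a library left out. This comparison and the one with U.NK use the same U.SK libraries.

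**Figure D4:**
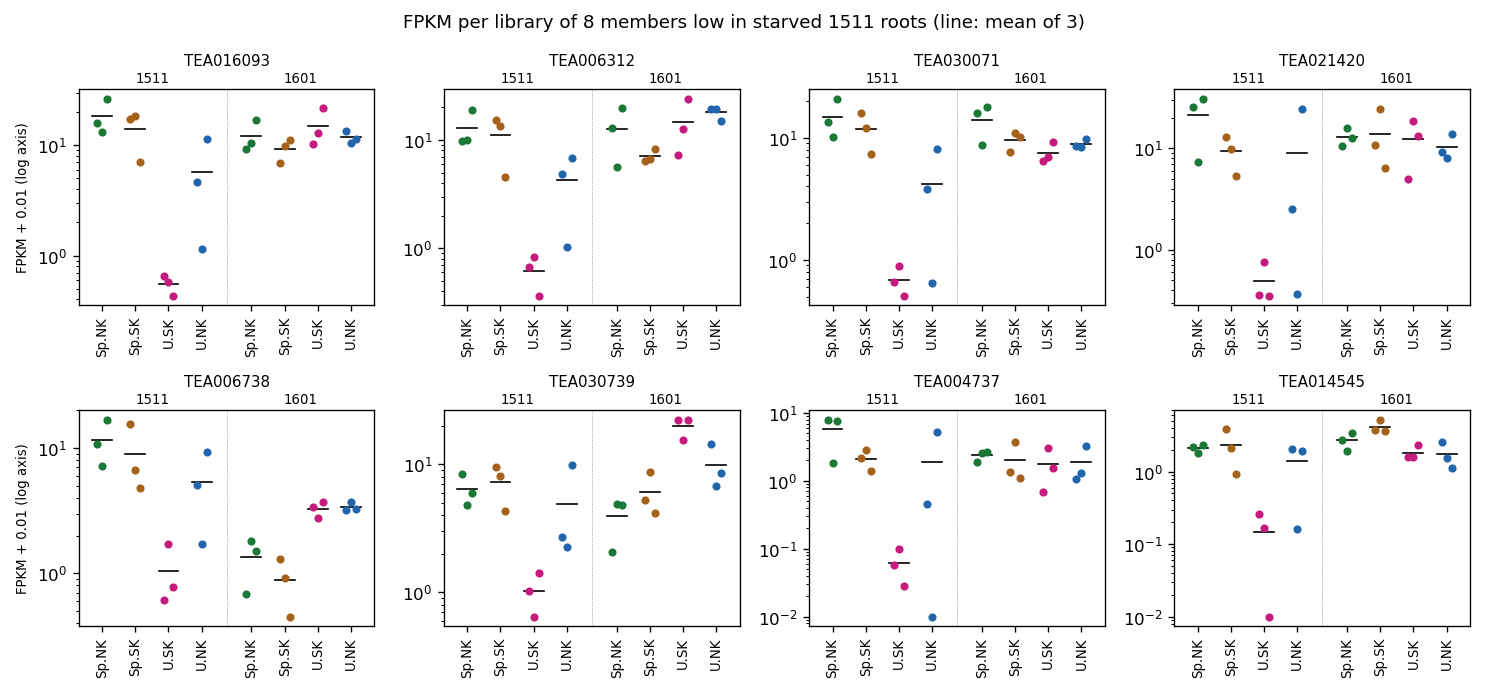
FPKM + 0.01 per library (log axes) of 8 members by condition, with “1511” left and “1601” right in each panel. Points are libraries, and lines are means of 3, with values of 0 drawn at 0.01. The U.SK libraries of “1511” are below all Sp.NK and Sp.SK libraries of that genotype in each panel, and U.NK libraries of “1511” spread between both levels.

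In “1601” the same K starvation of the whole root gave no call. None of the 73 members was called between U.SK and U.NK, and 0% of all genes tested were called (3 members at an unadjusted p under 0.05). DESeq2 and limma voom also called no member, and they called 1 and 70 genes in all. TEA016093 averaged 14.9 ± 5.98 FPKM under U.SK and 11.8 ± 1.58 FPKM under U.NK there (log2 fold change 0.34, SE 0.50, adjusted p = 1). TEA030739 had 22.0, 15.4 and 22.1 FPKM under U.SK, against 14.4, 6.70 and 8.49 FPKM under U.NK, with groups that did not overlap and a log2 fold change of 1.01 (SE 0.47, adjusted p = 1).

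The K-free side of divided roots was also set against fully starved roots in “1601”. Under Sp.SK, against U.SK, 12 of 73 members fell and none rose, where 6.82% of all genes tested were called, 2.58% higher and 4.24% lower. The members' median log2 fold change was -0.47, against 0 for all genes tested. TEA020236 fell with a log2 fold change of -2.11 (SE 0.42, adjusted p = 0.00655) and TEA020596 with one of -3.24 (SE 0.61, adjusted p = 0.00457). TEA028448 (scaffold 433, 7 exons) had 0.629, 2.47 and 1.27 FPKM under Sp.SK, against 9.36, 12.6 and 18.1 FPKM under U.SK, a log2 fold change of -3.20 (SE 0.63, adjusted p = 0.00616). In all 12 the libraries of the groups did not overlap, as in 25 of the 28 members called for this comparison in “1511”. The share over all genes was not counted. TEA027461, TEA018659, TEA006738 and TEA030739 fell by 3.15, 2.06, 1.92 and 1.72 on the log2 scale. TEA016581 (scaffold 16867, 6 exons), with 0, 1 and 3 counts under Sp.SK against 45, 45 and 23 under U.SK, was also called.

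Other abundant members were lower under Sp.SK without a call. They were TEA031749 (log2 fold change -1.48, adjusted p = 0.0515), TEA031553 (-2.06, adjusted p = 0.0512) and TEA031563 (-2.06, adjusted p = 0.0649). The calls that held with each library left out were TEA020236, TEA020596, TEA028448 and TEA024991 (named after its values were seen, with a log2 fold change of -1.22). Leaving out Sp.SK replicate 1 or U.SK replicate 1 gave 4 members, Sp.SK replicate 2 gave 7 and U.SK replicate 2 gave 5. The count was 39 with limma voom, of which 11 were higher and 28 lower, where it called 12611 of 35557 genes in all.

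Between the sides of the same divided plants, “1601” had 7 members higher under Sp.NK than under Sp.SK and none lower, where 1.34% of all genes tested were called, 1.31% higher and 0.0337% lower. 6 of the 7 were TEA020236, TEA031749, TEA020596, TEA031563, TEA018659 and TEA031553, all abundant and all with 5 or 6 exons, and the other was a newly assembled member on scaffold 2541 with at most 3 counts in each Sp.SK library. TEA020236 rose under Sp.NK with a log2 fold change of 2.86 (SE 0.43, adjusted p = 0.00528). TEA031553 had 55.8, 54.6 and 47.0 FPKM under Sp.NK, against 1.02, 7.55 and 7.99 FPKM under Sp.SK, a log2 fold change of 3.25 (SE 0.65, adjusted p = 0.0131). TEA031563 had 47.4, 43.8 and 32.4 FPKM under Sp.NK, against 0.775, 5.66 and 8.68 FPKM under Sp.SK, a log2 fold change of 3.03 (SE 0.69, adjusted p = 0.0281). TEA020596, TEA018659 and TEA031749 followed with 3.07, 2.22 and 2.08. Sp.SK replicate 1 was the lowest library for 5 of these 6 members. TEA020236 was the only one whose call held with each library left out, and leaving out Sp.SK replicate 1 or 2 gave 1 member, Sp.NK replicate 1 gave 3 and Sp.NK replicate 2 gave 2. This comparison and the previous one share the Sp.SK libraries.

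In “1511” no member was called between Sp.NK and Sp.SK, and 0% of all genes tested were (1 member at an unadjusted p under 0.05). DESeq2 and limma voom called no member either, and 1 and 0 genes in all. TEA020236 had 104, 207 and 80.8 FPKM under Sp.NK, against 141, 57.8 and 89.8 FPKM under Sp.SK. TEA016093 had 15.9, 13.1 and 26.2 FPKM under Sp.NK, against 17.1, 18.4 and 6.99 FPKM under Sp.SK. Both sides overlapped for both members.

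Roots on K in divided plants were compared with those of plants with K on both sides. In “1511” 2 members were higher under Sp.NK, where 4.61% of all genes tested were called, 2.67% higher and 1.94% lower. TEA009260 (scaffold 572, 13 exons) had 14.9, 8.79 and 13.5 FPKM under Sp.NK, against 2.79, 2.91 and 8.29 FPKM under U.NK, a log2 fold change of 1.41 (SE 0.36, adjusted p = 0.0368). TEA030071 had 13.4, 10.2 and 20.8 FPKM under Sp.NK, against 3.79, 0.632 and 8.13 FPKM under U.NK, a log2 fold change of 1.82 (SE 0.50, adjusted p = 0.0442). In neither did the groups overlap. Leaving out Sp.NK replicate 2 or 3 or U.NK replicate 1 or 2 gave 0 members, and U.NK replicate 3 gave 15.

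In “1601” 1 member was higher under Sp.NK, where 0.9% of all genes tested were called, 0.281% higher and 0.619% lower. TEA017186 (scaffold 3561, 3 exons and 1 domain) had 3.95, 2.63 and 4.16 FPKM under Sp.NK, against 1.28, 1.15 and 0.782 FPKM under U.NK, a log2 fold change of 1.73 (SE 0.37, adjusted p = 0.0314). The call was lost without Sp.NK replicate 1 or 3 or any U.NK library, and the count was 2 without Sp.NK replicate 2. TEA027461 was not called there (log2 fold change -2.16, SE 0.89, adjusted p = 0.233), although its libraries did not overlap.

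The genotypes were compared within each condition. The largest count was under U.SK, where 39 of 73 members were lower in “1511” than in “1601” and 2 were higher. Of all genes tested 54.3% were called there, 24.8% higher and 29.4% lower, with a median log2 fold change of -0.08, against -1.51 for the members (-1.48 with 5 at a bound). TEA016093 (log2 fold change -4.82, SE 0.64, adjusted p = 5.38e-06), TEA030739 (-4.29, SE 0.56, adjusted p = 4.64e-06) and TEA009260 (-2.91, SE 0.39, adjusted p = 5.45e-06) had the smallest p-values. TEA030739 had 1.01, 0.634 and 1.41 FPKM in “1511”, against 22.0, 15.4 and 22.1 FPKM in “1601”. TEA009260 had 1.84, 2.50 and 3.24 FPKM in “1511”, against 16.9, 19.0 and 20.1 FPKM in “1601”. Neither pair of groups overlapped. TEA004737 was lower too (log2 fold change -5.11, SE 1.39, adjusted p = 0.00431), and TEA000126, with 0, 3 and 0 counts in “1511” against 21, 93 and 31 in “1601”, was also called. TEA005319 was higher in “1511” (0.54, SE 0.16, adjusted p = 0.00651). The count was 33 to 38 with each library left out, and 26 members were called in all 6 such fits. The “1511” U.SK libraries also enter the comparisons within that genotype.

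Under Sp.SK 11 members were higher and 2 lower in “1511”, where 29.5% of all genes tested were called, 14.6% higher and 14.8% lower. Limma voom called 14 members higher and 11 lower there, with a median log2 fold change of -0.06, against 0.09 in edgeR. It called 16343 of 35557 genes in all there. TEA006738 had 15.5, 6.63 and 4.80 FPKM in “1511”, against 1.28, 0.901 and 0.441 FPKM in “1601”, a log2 fold change of 3.35 (SE 0.58, adjusted p = 0.000146). TEA013661 had 34.5, 24.5 and 21.8 FPKM in “1511”, against 8.03, 8.18 and 5.08 FPKM in “1601”, a log2 fold change of 1.91 (SE 0.36, adjusted p = 0.000378). TEA020236, TEA020596, TEA031563, TEA018659, TEA031895, TEA028448, TEA021330, TEA016581 and TEA028137 were the others that were higher. Leaving out replicate 3 of “1511” or replicate 2 of “1601” gave 8 members, and replicate 1 of “1601” gave 6. TEA006738, TEA013661 and the rarer TEA005591, which was lower, kept their calls in all 6 fits. TEA005591, named after its values were seen, had 0.0456, 0.107 and 0 FPKM in “1511”, against 0.278, 0.833 and 0.795 FPKM in “1601”.

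Under Sp.NK 5 members were higher and 5 lower in “1511” than in “1601”, where 25.5% of all genes tested were called, 12.4% higher and 13% lower. TEA006738 had 10.8, 7.20 and 16.7 FPKM in “1511”, against 0.678, 1.81 and 1.51 FPKM in “1601”, a log2 fold change of 3.09 (SE 0.56, adjusted p = 0.000287). TEA009967 (scaffold 2262, 5 exons) and TEA021330 (scaffold 1968, 5 exons) were higher in “1511” by 1.87 and 1.73 on the log2 scale. TEA031749 was lower in “1511” (log2 fold change -1.44, SE 0.45, adjusted p = 0.0224), as were TEA020236 (-1.29, SE 0.41, adjusted p = 0.0239) and TEA017186 (-1.05, SE 0.35, adjusted p = 0.0318). Leaving out replicate 1 of “1511” or replicate 3 of “1601” gave 6 members, and replicate 1 of “1601” gave 5.

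Under U.NK 2 members were higher and 10 lower in “1511”, where 29.8% of all genes tested were called, 14.3% higher and 15.5% lower. TEA026034 had 10.9, 14.9 and 17.9 FPKM in “1511”, against 121, 105 and 100.1 FPKM in “1601”, a log2 fold change of -2.92 (SE 0.82, adjusted p = 0.00990). TEA033818 (scaffold 1759, 3 exons) had 0.0747, 0.478 and 0.0844 FPKM in “1511”, against 1.48, 1.15 and 2.21 FPKM in “1601”, a log2 fold change of -2.94 (SE 0.86, adjusted p = 0.0131). TEA013661 was higher in “1511” (1.06, SE 0.35, adjusted p = 0.0266) with overlapping groups. TEA027461 was lower (-2.45, SE 0.90, adjusted p = 0.0452) and held its call in 1 of 6 fits with a library left out. Leaving out replicate 1 of the “1511” libraries gave 5 members, replicate 3 of “1511” gave 20 and replicate 3 of “1601” gave 6.

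TEA006738 changed its side between conditions. It was higher in “1511” under Sp.NK and Sp.SK and lower under U.SK (log2 fold change -1.71, SE 0.56, adjusted p = 0.0148, held in 4 of 6 fits with a library left out). Under U.NK it averaged 5.35 ± 3.80 FPKM in “1511” and 3.39 ± 0.283 FPKM in “1601”, with overlapping groups. TEA020236, TEA020596 and TEA018659 were likewise higher in “1511” under Sp.SK and lower under U.SK.

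Whether the change differed between the genotypes was tested as a difference of log2 fold changes. For Sp.SK against U.SK, the difference (“1511” minus “1601”) was positive in 26 of 73 members and negative in 1. Of all genes tested 14% were called, 9.15% with a positive and 4.86% with a negative difference. A positive difference can come from a rise in “1511”, a fall in “1601” or both. TEA020236, TEA020596, TEA028448 and TEA024991 were called lower in “1601” and were not called in “1511”. The median of the members was 1.97, against 0.04 for all genes tested. TEA016093 had the smallest p-value, a difference of 5.41 (SE 0.81, adjusted p = 0.000448), with changes of 4.72 in “1511” and -0.69 in “1601”. TEA006738 differed by 5.07 (SE 0.80, adjusted p = 0.000740) and TEA030739 by 4.56 (SE 0.73, adjusted p = 0.000781), and both were called higher in “1511” and lower in “1601”. TEA006312 differed by 5.24 (SE 0.86, adjusted p = 0.00101) and TEA030071 by 3.81 (SE 0.76, adjusted p = 0.00354). Among the abundant members, TEA020596 differed by 3.92 (SE 0.82, adjusted p = 0.00449) and TEA018659 by 3.37 (SE 0.69, adjusted p = 0.00412). 14 of the 27 calls held in all 12 fits with a library left out, and the count was 16 without “1511” Sp.SK replicate 1.

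**Figure D5:**
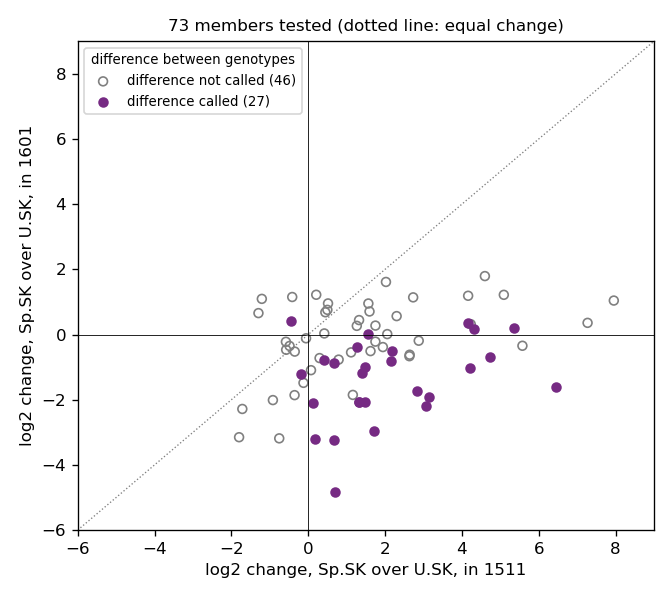
Log2 fold change of Sp.SK over U.SK in “1511” (x axis) and “1601” (y axis) for the 73 tested members. Filled points are the 27 members whose change differed between the genotypes, and the dotted line marks equal change. All but 1 of the filled points lie below the line, and fitted values beyond about 5 belong to members with few or no counts in a group.

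For U.SK against U.NK, 2 members had a negative difference, where 0.45% of all genes tested were called, 0.0141% with a positive and 0.436% with a negative difference. Both members were called lower in “1511”, and in “1601” neither was called and both fitted changes were positive. They were TEA016093 (difference -3.75, SE 0.80, adjusted p = 0.0415) and TEA030739 (-3.27, SE 0.72, adjusted p = 0.0468). Each held its call in 3 of 12 fits with a library left out. Leaving out “1511” U.NK replicate 2 gave 13 members and “1511” U.SK replicate 3 gave 3. Leaving out “1511” U.NK replicate 1 or “1601” U.SK replicate 1 gave 1, and each of the other 8 libraries gave 0. For Sp.NK against U.NK no member was called by edgeR, where 0.231% of all genes tested were, 0.174% with a positive and 0.0562% with a negative difference (8 members at an unadjusted p under 0.05), nor by DESeq2. Limma voom called 19 members there, and 4801 of 35557 genes in all. The edgeR count was 6 without “1511” U.NK replicate 3.

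Other gene families of lignin building and of copper use, taken by their Pfam domain, were counted in the same fits. Between Sp.SK and U.SK in “1511”, 38 of 105 tested heme peroxidases rose and 3 fell, with a median log2 fold change of 1.04. Of 26 dirigent proteins, which steer the coupling of monolignol radicals, 13 rose and none fell, with a median of 1.99. Of 7 aromatic amino acid lyases 5 rose, TEA014056 among them, which belongs to both lists, and none fell. Of 17 O-methyltransferases 6 rose and none fell, and of 10 genes with the CCoAOMT-type methyltransferase domain 3 rose and 1 fell. Genes with the Casparian strip membrane protein domain went the other way by their sum, with 907 to 1617 CPM under Sp.SK, against 2566 to 2926 CPM under U.SK. Their highest gene held 72.0% of the Sp.SK mean and 90.7% of the U.SK mean. Without it the sum was 359 CPM under Sp.SK and 256 CPM under U.SK. Among copper proteins, 12 of 41 phytocyanins, small blue copper proteins, rose and 1 fell. Of 8 copper/zinc superoxide dismutases none rose and 1 fell, of 6 Ctr copper transporters 2 rose and 2 fell, of 8 copper amine oxidases 3 rose and 2 fell, and of 21 genes with the SBP domain, which in Arabidopsis is carried by a regulator of copper use, 3 rose and 4 fell. Of all genes tested 17.4% rose and 13.8% fell here, and nothing particular to a list is read from its count.

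Between U.SK and U.NK in “1511”, 21 of 105 heme peroxidases fell and 1 rose, and 7 of 26 dirigent proteins fell and none rose, where 5.88% of all genes tested fell and 1.96% rose. Under Sp.SK against U.SK in “1601”, 15 heme peroxidases fell and 4 rose, while 1 dirigent protein fell and 2 rose, where 4.24% of all genes tested fell and 2.58% rose. Between Sp.NK and Sp.SK in “1601”, 15 heme peroxidases were higher under Sp.NK and none lower, and no dirigent protein was called, where 1.31% of all genes tested were higher and 0.0337% lower. Under U.SK, 56 of 105 heme peroxidases, 20 of 26 dirigent proteins, 14 of 17 O-methyltransferases and all 7 aromatic amino acid lyases were lower in “1511” than in “1601”, where 29.4% of all genes tested were lower and 24.8% higher. Other lists had a higher mean sum in “1511” there. These were the Casparian strip membrane protein domain (2750 against 1449 CPM), copper amine oxidases (1944 against 815), the SBP domain (1020 against 771.5), Ctr copper transporters (204.9 against 164.5) and copper/zinc superoxide dismutases (471 against 373). Phytocyanins (591 against 918 CPM) and the CCoAOMT-type domain (136 against 335) had a lower one. The order for the Casparian strip domain rested on its highest gene. Without that gene the mean sum was 256 CPM in “1511” and 416 CPM in “1601”. These sums were not tested. The summed level of the heme peroxidases in “1511” was 4961 ± 619 CPM under Sp.NK, 4142 ± 598 under Sp.SK, 2634 ± 256 under U.SK and 4148 ± 517 under U.NK (SD, n = 3 each).

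Marker lists of cell types moved with some of these comparisons. Genes with the Casparian strip membrane protein domain, taken for the endodermis, summed in “1511” to between 2566 and 2926 CPM under U.SK, against between 962 and 2391 CPM under U.NK, and 1 gene of the 42 listed held 90.7% of the U.SK mean. Without it the sum was 256 CPM under U.SK and 340.0 CPM under U.NK, and 0 of 32 tested genes of the list rose and 3 fell, where 1.96% of all genes tested rose and 5.88% fell. Green tissue markers (31 listed, 1 with no count) summed to 379 to 494 CPM in the group means of “1511”, against 684 to 1368 CPM in those of “1601”, and 20 of 27 tested were lower in “1511” under U.SK and 1 was higher, where 29.4% of all genes tested were lower and 24.8% higher. Markers of dividing cells summed to 691 to 754 CPM in the group means of “1511”, against 779 to 860 CPM in those of “1601”. Under Sp.SK against U.SK in “1511”, 24 of 56 tested dividing-cell markers rose and 7 fell, and 18 of 49 genes with the cellulose synthase domain rose and 3 fell, where 17.4% of all genes tested rose and 13.8% fell. In “1601” the cellulose synthase genes summed to 871 to 1328 CPM in the Sp.SK libraries, lowest in replicate 1, against 1609 to 1653 CPM in those of U.SK, without overlap, and 7 of 49 fell and none rose, where 4.24% of all genes tested fell and 2.58% rose. The green tissue markers summed there to 724 to 1052 CPM under Sp.SK, against 1011 to 1987 CPM under U.SK, with overlap, and 2 of 27 fell and 1 rose. The part of these cell types in the members' values was not tested.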

How the data were processed

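Roots of 2 tea genotypes under 4 conditions were sequenced, 3 libraries each. The authors removed adapter and low-quality reads, aligned them with HISAT2 2.0.5 (the submitters' processing notes also name CASAVA 1.7) to the scaffold-level tea genome, and added newly assembled genes. The deposited values are raw counts per gene, and the counting program is not given in the sources used here. The FPKM deposited beside the counts were within 1% of the count divided by gene length and by a library size, and that size lay between 0.806 and 1.11 times the total count.

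In R 4.3.3, genes were filtered with filterByExpr (35557 of 48505 kept), scaled by TMM, fitted in 8 groups over 24 libraries (16 residual degrees of freedom) with edgeR 4.0.16, tested by quasi-likelihood, and adjusted by Benjamini-Hochberg over 35557 genes. Calls needed an adjusted p-value under 0.05. Counts of members at an unadjusted p under 0.05 are given without the share over all genes. Nothing particular to the members is read from those counts. There were 12 comparisons of 2 groups and 3 differences between the genotypes' changes. FPKM levels were described without a test.

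The members, the related lists and the markers were chosen with earlier results of these data known. The genes named are the 10 members with the highest mean FPKM. To these were added, in each comparison, the 3 called members with the largest rise and the 3 with the largest fall among those with a mean of at least 1 CPM, and, for each difference between genotypes, the 5 with the smallest p-value. Other members named in the text were chosen after their values were seen. A fold against a group without any count was given as a bound from a floor of 3 counts over its 3 libraries. None of the gene identifiers was found in the RefSeq gene table (assembly ASM5576180v1), so no gene names were added. Alternatives were DESeq2 1.42.0 and its size factors, limma 3.58.1 with voom quality weights, no filter, the replicate block, fewer libraries in the fit, and each library left out.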

Additional observations from a re-analysis of the deposited data

Results flagged for a closer look

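The results below were picked out because the change in “1511” differed from the change in “1601” by a test of the difference itself (edgeR, Benjamini-Hochberg adjusted p under 0.05). The values are the log2 change in “1511” minus the log2 change in “1601”. No explanation was tested for any of them.

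For Sp.SK against U.SK the difference was positive in 26 members, which a rise in “1511”, a fall in “1601” or both can give. The difference was above 5 for TEA012580 8.06, TEA016581 5.54, TEA016093 5.41, TEA026034 5.24, TEA006312 5.24, TEA004737 5.14 and TEA006738 5.07, of which TEA012580 had no count on U.SK in “1511” and TEA016581 at most 3 counts per library on Sp.SK in “1601”, so that their values depend on the fit. It was between 3 and 5 for the newly assembled member on scaffold 2541 4.66, TEA030739 4.56, TEA021420 4.15, TEA020596 3.92, TEA030071 3.81, TEA031553 3.53, TEA031563 3.40, TEA028448 3.38 and TEA018659 3.37, of which the newly assembled member had at most 3 counts per library on Sp.SK in “1601”. It was between 2 and 3 for a newly assembled member on scaffold 1968 2.98, TEA028726 2.67, TEA009260 2.57, TEA013661 2.46 and TEA020236 2.24. It was under 2 for TEA014056 1.68, TEA031895 1.54, TEA027671 1.53, TEA029138 1.19 and TEA024991 1.02. The difference was negative for TEA005319, with -0.86. The 2 members with a negative difference for U.SK against U.NK were TEA016093 with -3.75 and TEA030739 with -3.27.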

How the results depend on the processing

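No named member's call changed direction under any alternative, but many calls were lost. Over the fits with a library left out, these calls were kept 606 times and lost 252 times. With edgeR on the 12 libraries of a genotype they were kept 28 times and lost 15 times. On only the libraries compared they were kept 54 times and lost 15 times. Members called are given as counts. With DESeq2 there were 23 for U.SK against U.NK, 7 for Sp.NK against U.NK in “1511”, 19 for Sp.SK against U.SK and 2 for Sp.NK against U.NK in “1601”, and 9 for the U.SK and U.NK difference between genotypes. Over all 44898 genes DESeq2 called, in the same order, 4347, 4023, 3909, 1281 and 1345. With limma voom there were 30 for Sp.NK against U.NK in “1511”, 39 for Sp.SK against U.SK, 10 for Sp.NK against U.NK and 22 for Sp.NK against Sp.SK in “1601”, 21, 25 and 41 between genotypes on Sp.NK, Sp.SK and U.NK, and 14 and 19 for the U.SK and Sp.NK differences from U.NK between genotypes. Over all 35557 genes limma voom called, in the same order, 11222, 12611, 4560, 3063, 13331, 16343, 20715, 9127 and 4801. With edgeR on the 12 libraries of a genotype there were 0 for U.SK against U.NK and 0 for Sp.NK against U.NK in “1511” (28 and 7 at an unadjusted p under 0.05), and 22, 2 and 14 for Sp.SK against U.SK, Sp.NK against U.NK and Sp.NK against Sp.SK in “1601”. In these fits 0 of 32265 genes were called in either “1511” comparison, and 4264, 1339 and 1053 of 33093 in the “1601” ones. On only the libraries compared there were 6 and 7 between genotypes on Sp.NK and U.NK and 0 for the U.SK and U.NK difference (23 at an unadjusted p under 0.05), which was 1 with DESeq2's size factors. Genes called in all were 6622 of 32100, 7409 of 31837 and 0 of 33574, and 143 of 35557 with DESeq2's size factors. The replicate block gave 4 for Sp.NK against U.NK in “1511” and 0 for the U.SK and U.NK difference, where it called 1948 and 71 of 35557 genes. It ended 9 of the calls of named members and in none of the other comparisons moved the count by over 1.5 times. The numbers were not taken to pair libraries, since the correlations of same-numbered libraries' deviations (-0.29 to 0.493) were not all above 0.1 in any comparison. Every library correlated best with its own number only for Sp.NK with U.NK in “1511” and for the genotypes under U.NK, a hint from the data and not from the design. Without the filter, no count moved by over 1.5 times. The cause of these shifts was not tested.

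With each library left out, counts in “1511” ranged from 2 to 28 (U.SK against U.NK), 20 to 27 (Sp.SK against U.SK), 0 to 15 (Sp.NK against U.NK) and 0 to 0 (Sp.NK against Sp.SK). In “1601” they ranged, in the same order, from 0 to 0, 4 to 12, 0 to 2 and 1 to 7. Between genotypes they ranged from 5 to 11 on Sp.NK, 6 to 14 on Sp.SK, 33 to 38 on U.SK and 5 to 20 on U.NK. For the differences between genotypes they ranged from 0 to 13 (U.SK against U.NK), 16 to 29 (Sp.SK against U.SK) and 0 to 6 (Sp.NK against U.NK). Counts over all genes are not given for the fits with a library left out, so nothing particular to the members is read from them. Low counts limit the 16 members that did not pass the filter and those with no count in a group.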
